A study of Mus musculus with 8 samples.

Results

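The data are single-cell mRNA counts of 36 cell cycle genes across the cell types of tumour-bearing mouse liver. The genes were taken by their symbols from a list of 11 genes of DNA synthesis (S phase) and 25 genes of mitosis, and all 36 were found among the 33696 genes counted. Male C57BL/6 mice of 8 to 10 weeks received 30 µg of plasmid by hydrodynamic tail vein injection, which pushes DNA into hepatocytes. The plasmids carried CRISPR-Cas9 with a guide RNA against Trp53, a transposon with c-Myc, and the SB13 transposase under a CMV promoter, so every group shares the guide against this tumour suppressor gene and the added oncogene. Livers were taken 4 to 5 weeks later, dissociated with enzymes for 1 hour at 37 °C and loaded for 10x 3′ sequencing at about 5000 cells a sample. Control mice were Ncr1WT, Nr4a1fl/fl, that is, floxed for the nuclear receptor gene Nr4a1 (Nur77) but without Cre. Knockout mice were Ncr1iCre, Nr4a1fl/fl, in which Cre is made from Ncr1, the gene of the receptor NKp46, so that deletion is aimed at NK (natural killer) cells and ILC1 (group 1 innate lymphoid cells), while other cell types keep the floxed gene. Each group has 3 libraries. Control 3 pools 3 mice and knockout 3 pools 2 mice, and the labels call libraries 1 and 2 biological replicates without naming the animals behind them. In what follows, library values are given in the order of replicates 1, 2 and 3.

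A dividing cell first copies its DNA and then separates the copies, and each step has its own set of transcripts. The MCM2-7 helicase unwinds DNA, PCNA clamps the polymerase to it, and the RRM, TYMS and TK1 enzymes supply nucleotides, with transcription driven by E2F factors near the start of S phase. Mitotic genes come on later, through B-MYB and FOXM1, and include the kinase CDK1 with its cyclins, the Aurora and Polo kinases, spindle motors, centromere proteins and the ubiquitin ligase parts that end mitosis. In resting cells the DREAM complex holds both sets down, by binding E2F sites and the cell cycle homology region (CHR). Most cells of an adult liver rest, whereas tumour cells, activated lymphocytes and erythroid precursors divide.

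Kept cells numbered 20088, from 134 to 9182 a library, with medians of 1924.5 to 3876 unique molecular identifiers (UMIs, counted molecules) a cell. Any pair of libraries shared 0 to 15 cell barcodes. Library 2 of each group stood apart: 547 control and 134 knockout cells were kept, and before filtering the median barcode had 27.9% and 75.1% mitochondrial UMIs, against 6.7% to 10.0% in the other 4. Values without both are given where a call or a direction rests on them; those for Kif23, the difference of shares and the medians of fold changes were added after the data were seen. Cells were placed in classes by marker UMIs, none of them from the 36 genes: 8.6% matched more than 1 class and 11.9% matched none. Hepatocytes were split by 11 transcripts such as Afp, Gpc3, H19 and Igf2, which adult hepatocytes make little of, and those rich in them are called tumour-type. In that class the median level of these transcripts was 53.0 UMIs in 10000, against 7.55 for the markers of mature, non-tumour hepatocytes. The NK or ILC1 class held 129.6 NK marker UMIs in 10000 and 5.95 of T cells. Nr4a1 itself was read in control NK or ILC1 cells at 85.3, 33.6 and 51.3 CPM (UMIs for every 1000000 UMIs of the class in that library). The knockout values were 144.1, 0 and 77.7 CPM, the 0 from a library in which 3 UMIs would be 28.7 CPM. Reads from the 3′ end may lie outside the floxed exons, which no label names, so they do not check the deletion.

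Promoter sequences are shown because the 2 sets of genes differ in the elements through which they are known to be held down. RefSeq promoters of GRCm38.p6, from 250 bases before to 50 bases after the start, were found for 10 S phase and 21 mitotic genes; Mcm4, Kif20a, Ccna2, Aurkb and Tpx2 have no entry in the table. The CHR letters TTTGAA, searched on both strands, were present in 16 of 21 mitotic promoters (76.2%) and in 1 of 10 S phase promoters (10.0%), that of Mcm2, against 20.2% of 27025 promoters in all. E2F letters, TTCCCGC or TTGGCGC on either strand, were in 5 of 10 S phase promoters and 4 of 21 mitotic promoters, against 7.8% of all. CCAAT boxes, the sites of the factor NF-Y, were in 8 of 10 (80.0%) and 19 of 21 (90.5%), against 41.1% of all. A match is a run of letters and not a shown binding site. The 150 bases before the start follow for the genes with the most UMIs in each phase, for Cdk1, and for Kif23, whose pattern across cell types departs from the rest. They run 5′ to 3′ along the gene's strand, and capitals mark the CHR, CCAAT and E2F letters on either strand.
Top2a (chr11:99024190-99024339, minus strand): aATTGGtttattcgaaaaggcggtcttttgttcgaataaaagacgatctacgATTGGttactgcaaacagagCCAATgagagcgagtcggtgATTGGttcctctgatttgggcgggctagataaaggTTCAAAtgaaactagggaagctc
Mki67 (chr7:135716380-135716529, minus strand): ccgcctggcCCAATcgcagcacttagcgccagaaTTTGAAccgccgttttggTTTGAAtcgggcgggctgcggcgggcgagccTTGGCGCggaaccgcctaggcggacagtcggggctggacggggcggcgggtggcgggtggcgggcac
Ube2c (chr2:164769779-164769928, plus strand): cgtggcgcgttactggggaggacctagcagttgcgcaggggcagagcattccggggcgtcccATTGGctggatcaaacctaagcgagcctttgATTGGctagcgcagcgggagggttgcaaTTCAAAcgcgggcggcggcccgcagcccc
Cdk1 (chr10:69352913-69353062, minus strand): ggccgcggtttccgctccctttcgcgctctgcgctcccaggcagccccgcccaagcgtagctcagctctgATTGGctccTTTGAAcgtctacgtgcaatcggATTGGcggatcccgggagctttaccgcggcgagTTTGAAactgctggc
Birc5 (chr11:117849087-117849236, plus strand): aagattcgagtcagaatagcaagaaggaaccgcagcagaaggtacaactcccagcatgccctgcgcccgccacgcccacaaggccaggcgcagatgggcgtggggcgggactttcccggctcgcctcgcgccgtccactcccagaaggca
Kif23 (chr9:61946800-61946949, minus strand): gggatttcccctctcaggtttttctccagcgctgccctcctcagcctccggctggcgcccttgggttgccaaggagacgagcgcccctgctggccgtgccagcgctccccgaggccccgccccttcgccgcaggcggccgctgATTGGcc
Pcna (chr2:132253181-132253330, minus strand): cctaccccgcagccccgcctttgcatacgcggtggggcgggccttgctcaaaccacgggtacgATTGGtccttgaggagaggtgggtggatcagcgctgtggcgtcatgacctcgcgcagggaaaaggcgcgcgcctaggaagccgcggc
Mcm6 (chr1:128359706-128359855, minus strand): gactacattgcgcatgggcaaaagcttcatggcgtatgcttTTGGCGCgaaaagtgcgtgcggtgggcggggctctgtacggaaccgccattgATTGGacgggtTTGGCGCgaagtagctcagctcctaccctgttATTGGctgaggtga
Top2a, Mki67, Ube2c and Cdk1 have CHR and CCAAT letters close together. Mcm6 has E2F and CCAAT letters without the CHR, Pcna a single CCAAT box, and Birc5 none of the 3 in these letters. The Kif23 promoter holds 1 CCAAT box before the start, and its CHR match lies just after it.

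The 36 genes gave 507526 UMIs in the kept cells; a 3′ tag counts a molecule once, whatever its length. Topoisomerase Top2a, which untangles DNA, had the most, 37007 UMIs in 17.6% of cells. It was followed by the inhibitor of apoptosis and spindle protein Birc5 (36231), the ubiquitin-conjugating enzyme Ube2c (34490) and the S phase clamp Pcna (30418 UMIs, in 27.4% of cells). The kinesins Kif23 (4678) and Kif20a (4042) had the fewest. Tumour-type hepatocytes were 8.59% of the cells and held 57.0% of all UMIs, 66.9% of S phase UMIs and 66.2% of mitotic UMIs. NK or ILC1 cells, 4.79% of cells with 3% of all UMIs, held 3.33% of S phase and 4.07% of mitotic UMIs. B cells were 20.02% of cells and held 1.49% and 0.80%. T cells were as many (19.7%) and held 8.98% and 9.99%, so the lymphocyte classes differed widely in what they gave.

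Summed over the 25 mitotic genes, tumour-type hepatocytes of the control libraries stood at 2397, 1135 and 1714 CPM and those of the knockout libraries at 2236, 2708 and 1643 CPM. Control NK or ILC1 cells stood at 3153, 1269.9 and 2116 CPM and knockout ones at 1682, 2269.8 and 2166 CPM. Control 2 was the lowest library in both classes, and otherwise the classes overlapped. Sums of the 11 S phase genes ran from 596 to 960.2 CPM (median 889.7) in tumour-type hepatocytes and from 448 to 1101 CPM (median 877) in NK or ILC1 cells. Within libraries, NK or ILC1 cells minus tumour-type hepatocytes was 137 ± 531 CPM for mitotic genes (SD, n = 6 libraries, adjusted p = 0.625, exact paired permutation test, two-sided, adjusted over 10 class pairs) and -9.92 ± 125 CPM for S phase genes (adjusted p = 0.875). A difference between these classes was thus not shown in summed level. T cells had median sums of 1673 CPM mitotic and 663 CPM S phase in the 5 libraries that held 10 T cells or more, and type 1 conventional dendritic cells (cDC1) had 1345 and 597 CPM in 4 libraries.

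**Figure D1:**
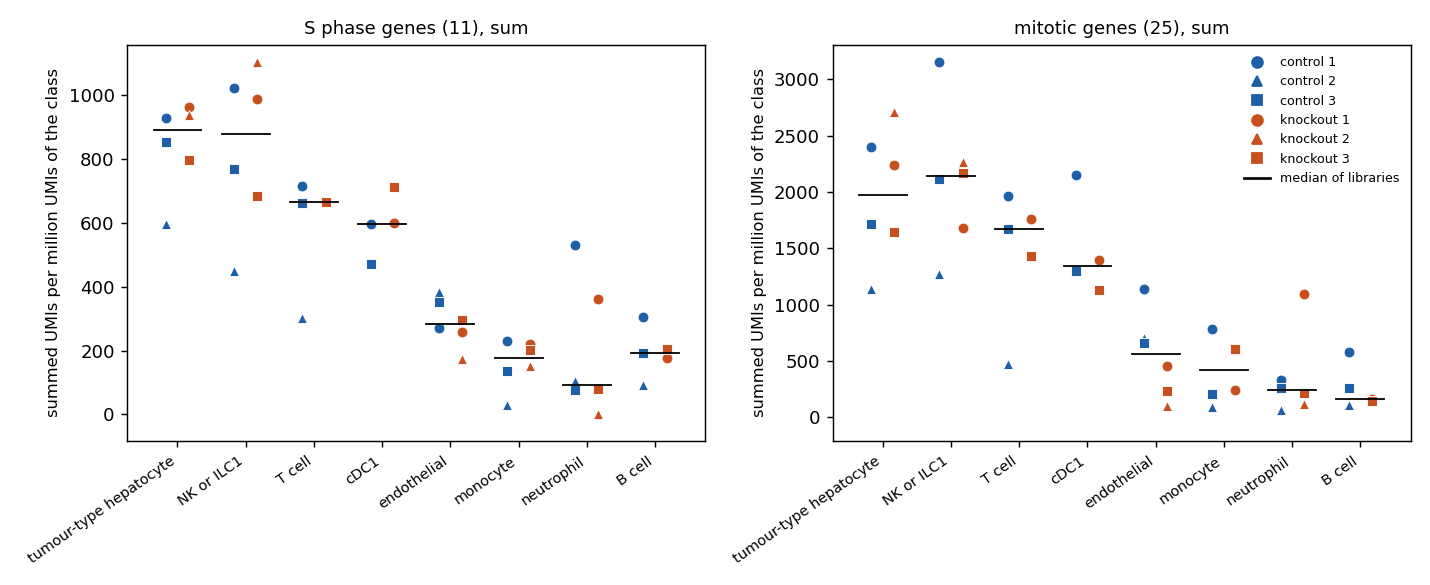
Summed CPM of the 11 S phase genes (left) and the 25 mitotic genes (right) in 8 cell classes; each point is a library, coloured by group and shaped by replicate, and lines are medians of libraries. Tumour-type hepatocytes, NK or ILC1 cells, T cells and cDC1 have the high medians (mitotic 1975, 2141, 1673 and 1345 CPM), and B cells the lowest (165.2 CPM).

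The other classes lay lower. Endothelial cells had a median mitotic sum of 560.4 CPM (range 96.6 to 1138), monocytes 419.6 CPM (91.6 to 781), neutrophils 239 CPM (69.3 to 1094) and B cells 165.2 CPM (111.5 to 578). Neutrophils are the usual example of a cell that has left the cycle, and their high value came from knockout 1, with 23 cells. Median S phase sums were 282 CPM in endothelial cells, 192.9 CPM in B cells, 176.9 CPM in monocytes and 92.0 CPM in neutrophils. In all 6 libraries, S phase sums were higher in NK or ILC1 cells than in endothelial cells (by 546 ± 315 CPM), monocytes (by 673 ± 201 CPM) and neutrophils (by 643 ± 255 CPM), each with adjusted p = 0.0446 in the exact paired permutation test. The same 3 differences for mitotic sums were 1561 ± 607, 1689 ± 413 and 1761 ± 776 CPM, also positive in 6 of 6 libraries, but missed the threshold after adjustment (adjusted p = 0.0521). The smallest exact p that 6 paired libraries can give, 0.0312, is the same for both phases. Leaving out both libraries numbered 2 leaves 4 pairs, and the S phase differences then have adjusted p = 0.179 in the exact test.

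Free RNA in droplets can add to such sums. In the libraries that list all barcodes, those with at most 100 UMIs, taken as empty droplets, held the mitotic genes at 1049 CPM in control 3 and 1163 CPM in knockout 3. B cells of the same libraries had 256 and 147 CPM, and neutrophils 264 and 215 CPM. How much of the low sums came from free RNA was not tested.

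A sum does not show how UMIs are spread over cells. Cells with at least 3 genes of a phase were therefore counted after thinning each cell to 1000 UMIs. This share also rises with the level of the genes, so it cannot tell dividing cells from RNA spread evenly over a class. By that measure 33.1%, 29.5% and 21.0% of control tumour-type hepatocytes held at least 3 mitotic genes, and 25.6%, 44.4% and 21.9% of knockout ones. The 44.4% of knockout 2 is 4 of 9 cells (exact 95% binomial interval 13.7% to 78.8%, counting error only). For NK or ILC1 cells the control shares were 18.2%, 3.23% and 10.8%, and the knockout shares 13.5%, 11.8% and 9.60%. Tumour-type hepatocytes were higher in 6 of 6 libraries, by 18.1 ± 9.19 percentage points (exact p = 0.0312, adjusted p = 0.0521, and 0.0446 when cells were thinned to 2000 UMIs). Without both libraries numbered 2 it was 12.4 ± 1.93 points, higher in 4 of 4 libraries (adjusted p = 0.139, exact paired permutation test). The tumour-type class thus had the larger share in each library although the summed levels of the classes overlapped. Thinning left out 0 to 12 tumour-type and 1 to 9 NK or ILC1 cells a library. Without thinning the shares were 60.0% to 96.8% of tumour-type hepatocytes, at median depths of 4290 to 94285 UMIs, and 4.90% to 27.4% of NK or ILC1 cells, at 2214.5 to 6285 UMIs. In tumour-type hepatocytes the 2 shallow libraries, those numbered 2, had the lowest unthinned shares.

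**Figure D2:**
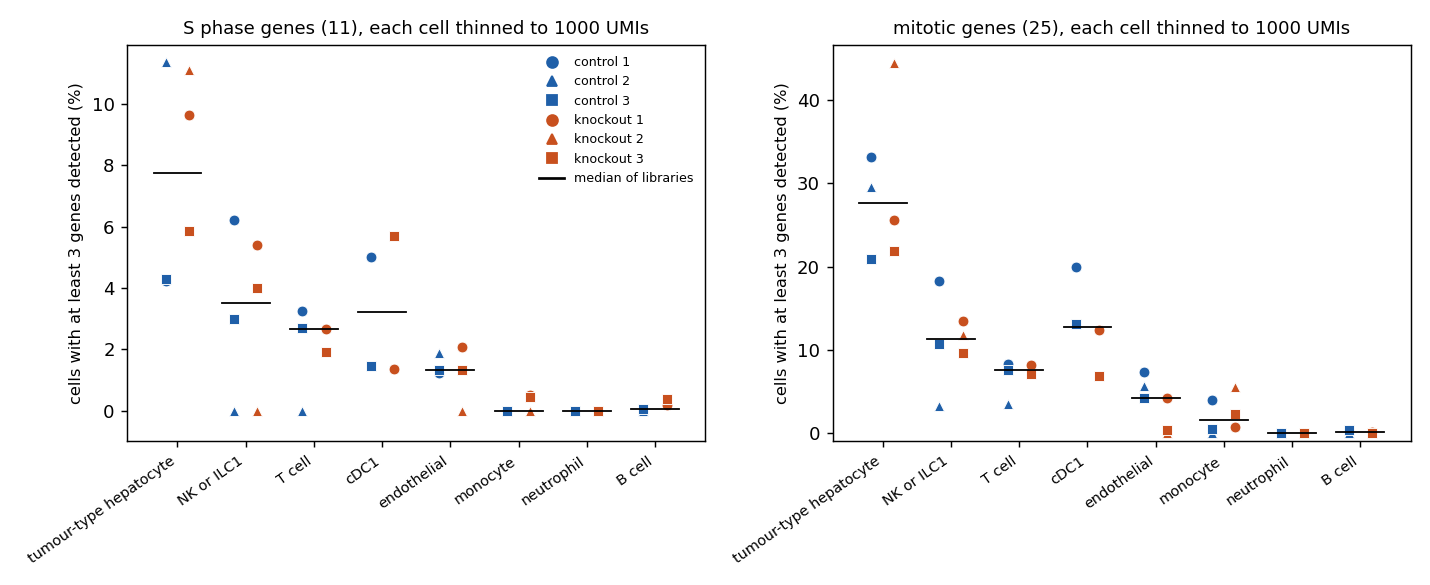
Percentage of cells with at least 3 S phase genes (left) or mitotic genes (right) detected after thinning each cell to 1000 UMIs; points are libraries and lines medians. For mitotic genes, tumour-type hepatocytes range from 21.0% to 44.4% and NK or ILC1 cells from 3.23% to 18.2%, while every neutrophil library is at 0%.

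Among T cells 3.45% to 8.33% passed this count for mitotic genes, among cDC1 6.82% to 20%, and among B cells 0% to 0.40% (8 of 2204 cells in control 3). No neutrophil did in any library; the largest, knockout 3, had 0 of 146 cells, with an exact upper limit of 2.49%. B cells and neutrophils were read at median depths of 2694 and 2340 UMIs. Their summed levels were low, so their shares are no background for the classes with high sums. For S phase genes the shares were 4.22% to 11.4% of tumour-type hepatocytes and 0% to 6.22% of NK or ILC1 cells. The erythroid class, 31 cells in all, stood highest, with 41.7% and 81.8% of cells passing for mitotic genes in knockouts 3 and 1, the libraries with at least 10 such cells, at mitotic sums of 4313 and 7103 CPM.

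Each class was then compared, gene by gene, with the mean of the other 4 classes present in all 6 libraries (edgeR quasi-likelihood test on summed UMIs, Benjamini-Hochberg over 10408 genes, threshold 0.05). In NK or ILC1 cells 11 of 11 S phase and 25 of 25 mitotic genes were higher, and 32.8% of all genes tested were called higher. Their median log2 fold changes were 1.62 and 1.79, beside 0.15 over all genes. Tumour-type hepatocytes had 11 of 11 and 24 of 25 higher, where 43.5% of all genes were, with medians of 2.15 and 2.24 beside 0.15. The gene left, Kif23, was lower, as were 34.8% of all genes. Monocytes had 10 S phase and 15 mitotic genes lower, against a background of 12.6% called lower, and endothelial cells 4 and 8 lower, against 25.1%. Neutrophils had 8 and 16 lower, against 35.1%, and 1 higher, Kif23, against 20.6%. These counts stayed within 1.5 times under other size factors, without a filter on low counts and without the libraries numbered 2.

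The classes ranked the genes differently. Within tumour-type hepatocytes the widest differences were for the hyaluronan-receptor and spindle gene Hmmr, with a log2 fold change of 3.31 (SE 0.26), and the thymidine kinase Tk1, with 2.61 (SE 0.23). In NK or ILC1 cells they were the spindle protein gene Nusap1, with 2.68 (SE 0.26), and the helicase gene Mcm5, with 2.05 (SE 0.23). Pcna was the S phase gene with the lowest fold in both, 0.91 in NK or ILC1 cells and 1.06 in tumour-type hepatocytes; it also serves DNA repair. At the low end, ribonucleotide reductase Rrm2 was at -2.55 (SE 0.47) and Birc5 at -2.05 (SE 0.36) in endothelial cells. Prc1, which bundles spindle microtubules, was at -1.92 (SE 0.41) and Rrm2 at -1.70 (SE 0.43) in monocytes. Mcm3 was at -3.12 (SE 0.69) and the spindle assembly gene Tpx2 at -3.17 (SE 0.92) in neutrophils. Adjusted p in the edgeR test was at most 0.00361 for these. The highest folds in the low classes missed the threshold: Mcm3 (0.57) and Tpx2 (0.08) in endothelial cells, Mcm3 (-0.67) and the checkpoint kinase Bub1b (-0.25) in monocytes, and Rrm2 (1.01) in neutrophils.

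**Figure D3:**
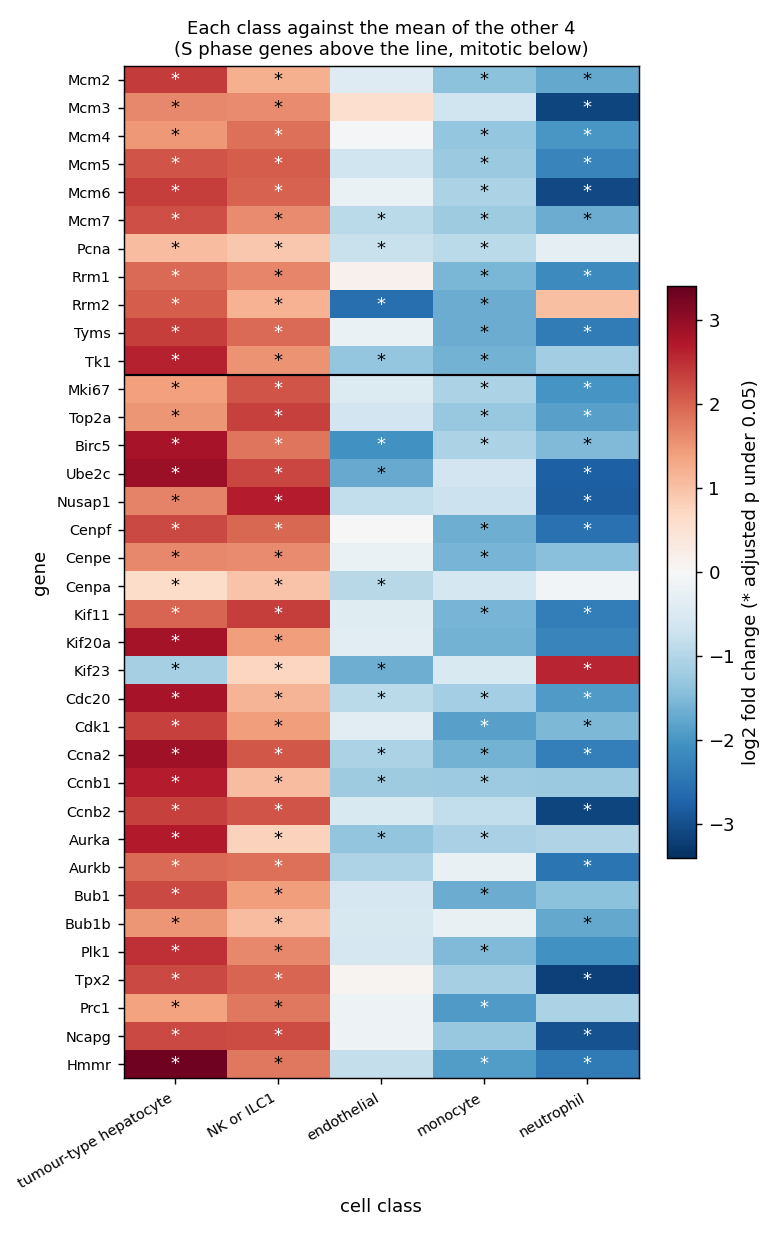
Log2 fold change of each of the 36 genes in 5 cell classes against the mean of the other 4 (colour), with stars for adjusted p under 0.05 in the edgeR test. The first 2 columns are red for every gene apart from Kif23 in tumour-type hepatocytes (-1.14), which in neutrophils is the one gene called higher (2.58).

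Per library, the most abundant genes of each phase gave the following levels. Top2a was read in control NK or ILC1 cells at 440.1, 215 and 344 CPM and in knockout ones at 326, 527 and 311 CPM. In tumour-type hepatocytes it was at 244, 100.4 and 167 CPM (control) and at 227, 326 and 144 CPM (knockout). The NK or ILC1 value was the higher one in each of the 6 libraries. Mki67, which encodes the proliferation marker Ki-67, showed the same order, with 385.5, 159 and 249.9 CPM in control and 265, 307 and 208.5 CPM in knockout NK or ILC1 cells. Its tumour-type values were 170.9, 74.8 and 119.7 CPM and 201.3, 226 and 113 CPM. Birc5 had the opposite order, with 229.6, 107.5 and 168 CPM, then 93.7, 95.8 and 168 CPM in NK or ILC1 cells. In tumour-type hepatocytes Birc5 was at 271.5, 109 and 195 CPM, then 224, 303 and 203 CPM, above NK or ILC1 cells in all 6 libraries, by little in control 2. Ube2c read 251, 103 and 164 CPM, then 82.2, 86.2 and 233 CPM in NK or ILC1 cells, and 252, 102.6 and 165.98 CPM, then 177, 217 and 189.7 CPM in tumour-type hepatocytes. For Ube2c the classes lay close in the controls and apart in both directions in the knockouts.

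S phase genes were nearer to each other. Pcna stood at 200.5, 94.1 and 157 CPM in control and 218, 134 and 149 CPM in knockout NK or ILC1 cells, and at 165.3, 83.3 and 163 CPM and 175, 148.5 and 139.7 CPM in tumour-type hepatocytes. Mcm6 stood at 116, 49.3 and 97.4 CPM and 144, 153 and 109 CPM in NK or ILC1 cells, and at 104, 100.4 and 109.7 CPM and 121, 128.5 and 115 CPM in tumour-type hepatocytes. Mcm7, another subunit of the helicase, stood at 96, 47 and 64.3 CPM and 92.3, 115 and 55.7 CPM, against 97.4, 64.1 and 77.4 CPM and 102.5, 103 and 78.8 CPM. The ranges of the classes overlap for all 3, and control 2 is the low library for each in NK or ILC1 cells. All 36 genes were detected in every library of both classes, with totals of 86 to 2249 UMIs a gene in NK or ILC1 cells and 1889 to 26660 UMIs in tumour-type hepatocytes. In neutrophils Kif23 alone was detected in every library.

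The other members are set out by role, as medians of libraries in CPM for NK or ILC1 cells first and tumour-type hepatocytes second. Of the helicase subunits, Mcm2 stood at 34.1 and 58.2, Mcm3 at 68.2 and 57.4, Mcm4 at 53.8 and 38.9, and Mcm5 at 58.5 and 48.5. Of the enzymes that make DNA precursors, the reductase subunits Rrm1 and Rrm2 stood at 75.5 and 73.5 and at 54.3 and 77.8, Tyms at 65.8 and 78.3, and Tk1 at 42.9 and 73.2. The mitotic kinase Cdk1 had 84.5 and 122.2, and its cyclins Ccna2 55.0 and 75.9, Ccnb1 27.2 and 50.2, and Ccnb2 67.9 and 58.2. The Polo kinase Plk1 (25.1 and 36.4) and the Aurora kinases Aurka (14.3 and 47.1) and Aurkb (35.5 and 32.3) are further kinases of mitosis. The checkpoint kinases Bub1 and Bub1b had 23.8 and 33.9 and 29.8 and 35.8, and Cdc20, the activator of the anaphase ligase, 27.9 and 68.3. Of the centromere genes, Cenpa had 88.3 and 75.0, the motor Cenpe 62.9 and 56.8, and Cenpf 96.9 and 92.4. Of the spindle genes, Kif11 had 102.7 and 69.3, Nusap1 102.9 and 53.4, Prc1 99.3 and 73.8, Tpx2 50.1 and 56.1, Hmmr 42.6 and 96.5, and Kif20a 15.1 and 20.6. The condensin subunit Ncapg had 29.5 and 27.9. Of these 28 genes, 13 had the higher median in NK or ILC1 cells and 15 in tumour-type hepatocytes. The ranges over libraries overlapped for all 28, and a difference between the 2 classes was not tested gene by gene. In B cells the medians of 15 of the 25 mitotic genes were under 5 CPM, and Cenpa (51.6 CPM) and Top2a (24.3 CPM) were the highest.

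With T cells, B cells and basophils or mast cells added, 8 classes could be compared over the 5 libraries other than knockout 2, a set chosen after the cell numbers were seen. T cells had 11 of 11 S phase and 24 of 25 mitotic genes higher than the mean of the other 7 (background 28.9%), led by Ube2c (log2 fold change 2.04, SE 0.29) and Mcm5 (1.62, SE 0.17). B cells had 7 of 11 and 24 of 25 lower (background 20.9%), with the centromere protein gene Cenpf (-2.72, SE 0.54) and the thymidylate synthase gene Tyms (-2.19, SE 0.38) lowest. The histone variant gene Cenpa was the mitotic gene that did not pass in B cells (adjusted p = 0.0533, edgeR). NK or ILC1 cells had 11 and 25 higher in this wider set (background 29.5%), and tumour-type hepatocytes 11 and 23 (background 43.8%), with Kif23 again lower (background 34.3%). In neutrophils 8 S phase genes but 5 mitotic genes were then lower (background 30.1%), with Kif23 again higher (background 19.1%).

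Kif23 encodes the kinesin of the central spindle, a partner of RACGAP1 in the last step of cell division. Control neutrophils had it at 92.6, 52.0 and 113.6 CPM (7, 3 and 31 UMIs) and knockout ones at 201.5, 77.9 and 91.0 CPM (14, 2 and 33 UMIs). Tumour-type hepatocytes, from 4 to 578 UMIs a library, had it at 20.2, 8.55 and 12.5 CPM and at 21.5, 25.7 and 13 CPM. Each neutrophil library was above each tumour-type library, although the libraries numbered 2 rest on 3 and 2 UMIs. Kif23 was higher in neutrophils than in the mean of the other 4 classes, at a log2 difference of 2.58 ± 0.26 (SE), with adjusted p = 2.28e-11 in edgeR. It was lower in tumour-type hepatocytes (-1.14, SE 0.19, edgeR adjusted p = 9.9e-07), and there the comparison mean includes the neutrophils. Without both libraries numbered 2 the edgeR values were 2.65 (SE 0.28, adjusted p = 1.00e-08) in neutrophils and -1.14 (SE 0.19, adjusted p = 6.66e-06) in tumour-type hepatocytes. NK or ILC1 cells had a median of 50.5 CPM and a log2 fold change of 0.73 (SE 0.19, edgeR adjusted p = 0.00143), their lowest among mitotic genes. T cells, at a median of 32.7 CPM, did not pass for Kif23 (0.14, edgeR adjusted p = 0.563). Classes outside these contrasts came near neutrophils. The median was 60.0 CPM in cDC1 (45.4 to 114.8, 4 libraries) and 81.3 CPM in erythroid cells (47.2 to 115.4, 2 libraries). Both overlap the neutrophil range of 52.0 to 201.5 CPM.

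The cells with Kif23 were then described by the other mitotic genes they held. Of 337 neutrophils, 63 held a Kif23 UMI, and 2 of these (3.2%) held at least 3 other mitotic genes, while 39 (61.9%) held none. In NK or ILC1 cells 104 of 128 Kif23-positive cells (81.2%) held at least 3 others, and in T cells 262 of 365 (71.8%). Monocytes and B cells were nearer to neutrophils, with 15 of 79 and 10 of 81 cells. Tumour-type hepatocytes, whose depth is far greater, had 99.5% of 597. These shares are unthinned and move with depth. Neutrophils held 0 Top2a UMIs in 4 of 6 libraries, as the plot of both genes shows, and hepatocyte markers at 130 to 1670 CPM by library; Kif23 was low in the hepatocyte classes, 2.5 CPM at the median in non-tumour and 16.6 CPM in tumour-type cells.

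**Figure D4:**
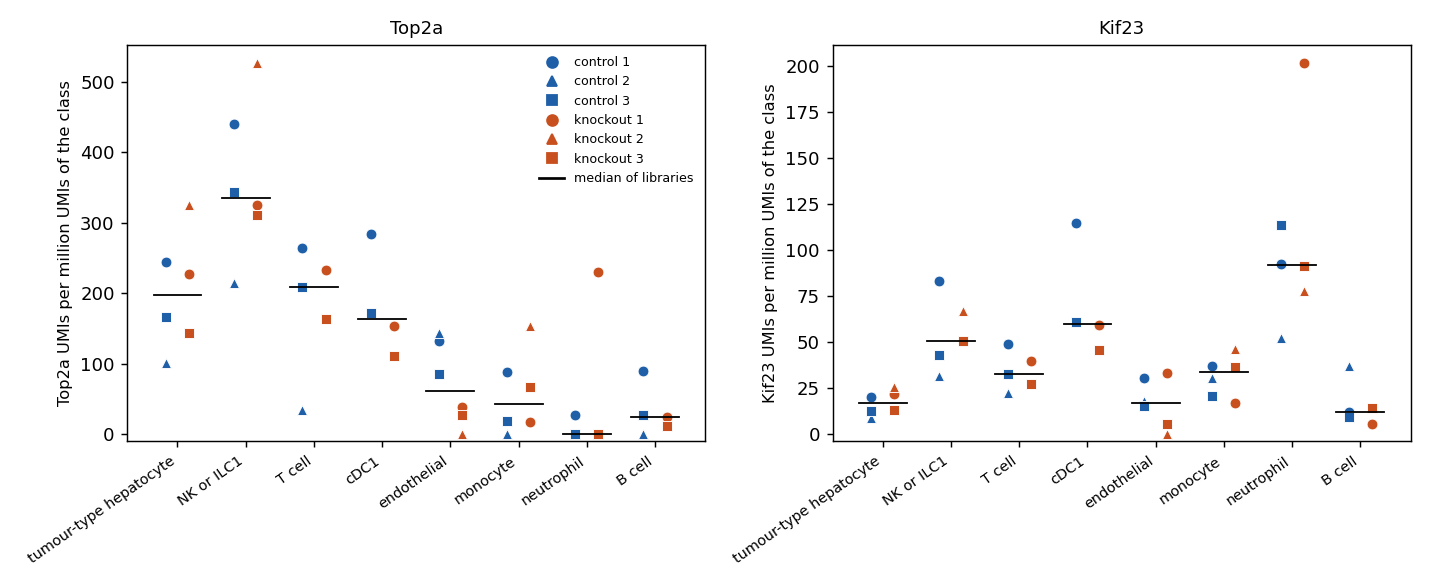
Levels of Top2a (left) and Kif23 (right) in CPM by class; points are libraries and lines medians. Top2a is highest in NK or ILC1 cells (median 335 CPM) and at a median of 0 in neutrophils, whereas Kif23 is highest in neutrophils (median 91.8 CPM, range 52.0 to 201.5).

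The mitotic genes, Kif23 included, were also read by which other mitotic genes a cell held. In cells thinned to 2000 UMIs, each mitotic gene was read at a median rate of 32.5% in NK or ILC1 cells that held at least 3 of the others, and of 0.57% in those that held none. For T cells the medians were 27.0% and 0.94%, for endothelial cells 31.4% and 0.58%, and for monocytes 26.3% and 0.42%. The first rate of each rests on 357 to 390 T cells but 33 to 35 endothelial cells and 17 to 20 monocytes, by gene. Top2a was the widest case in NK or ILC1 cells, at 77.1% against 4.60%, and Kif23 had 30.9% against 1.52%. Tumour-type hepatocytes showed less contrast, with 15.6% against 2.85% for mitotic genes and 19.3% against 10.1% for S phase genes. The S phase contrast in NK or ILC1 cells was 25.8% against 3.60%. Deeper cells and cells with more RNA of one gene tend to show others too, so these are descriptions and carry no test.

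Some cells were positive for both phases. How many would be so if the phases were independent was not worked out, so the counts do not show that the phases exclude each other. Among NK or ILC1 cells with at least 3 genes of either phase, 5 of 50 in control 1 and 5 of 50 in control 3 had both, with 36 and 38 mitotic alone and 9 and 7 S phase alone. In tumour-type hepatocytes of knockout 3, 126 cells were mitotic alone, 28 S phase alone and 8 both. Mitotic genes are the longer list, so the numbers of the 2 phases are not compared.

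The knockout question is whether loss of Nr4a1 in Ncr1-expressing cells goes with another level of these genes. No member passed in any of the 5 classes in the main edgeR fits over all genes, which leave out the pairing of libraries, nor with DESeq2. The backgrounds were 1 of 7295 genes (0.0137%) in NK or ILC1 cells and 0 in the other 4. Top2a passed in endothelial cells with the replicate number as a block (edgeR adjusted p = 0.0458). Without the filter on low counts Top2a and Cenpf passed there, as given below. Most endothelial genes called under these settings were not members, and the counts over all genes are given in the last paragraph. A call of 0 does not show that levels were alike, and the SE of each fold is given beside it. At an unadjusted p under 0.05 there were 0 members in NK or ILC1 cells, tumour-type hepatocytes and monocytes, where 155 of 7295 (2.12%), 145 of 13694 (1.06%) and 106 of 7478 genes (1.42%) were. No member of the 36 passed the filter on low counts in neutrophils.

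In NK or ILC1 cells, the class aimed at, the groups overlapped for every member; they did not for 7.84% of all genes tested. The mitotic sum was 2180 ± 943 CPM in controls and 2039 ± 314 CPM in knockouts (SD, n = 3 libraries each, exact permutation p = 1, adjusted p = 1), and the S phase sum 746 ± 288 and 924 ± 216 CPM (exact p = 0.6, adjusted p = 0.857). The smallest p that 3 libraries against 3 can give is 0.1. Fold changes ran from -0.78 to 0.11 over the 25 mitotic genes (median -0.24, 21 below 0). Over the 11 S phase genes they ran from -0.38 to 0.49 (median 0.08, 9 above 0), beside a median of 0.00 over all genes. Without both libraries numbered 2 the mitotic median was -0.43, with 25 below 0. The S phase median then turned to -0.11, with 8 of 11 below 0. The smallest p were those of the Polo kinase Plk1 (-0.78, SE 0.42), Birc5 (-0.47, SE 0.30), Mcm6 (0.49, SE 0.28) and Mcm5 (0.43, SE 0.34), all with an adjusted p of 0.9997 in the edgeR test. Values of the mice behind libraries 3 lay further apart than the group means. Antibody tags (hashtags) tied cells to mice. They left 2360 of 4871 kept cells in knockout 3 and 1654 of 9182 in control 3 unassigned, and values per mouse leave these out. Each mouse thus holds a part of the 404 (control 3) or 129 (knockout 3) NK or ILC1 cells, and its values include counting error. Mitotic sums in NK or ILC1 cells were 1251, 392 and 3247 CPM in the 3 control mice and 3715 and 1293 CPM in the 2 knockout mice, and shares of thinned cells 3.39%, 3.45% and 22.3%, and 19.05% and 13.04%.

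Tumour-type hepatocytes had mitotic sums of 1749 ± 632 CPM in controls and 2196 ± 534 CPM in knockouts (exact permutation p = 0.5, adjusted p = 0.857), with overlapping groups. Here 23 of 25 mitotic fold changes lay above 0, with a median of 0.14 and a range of -0.10 to 0.47, beside -0.02 over all genes. Mki67 (0.47, SE 0.31), Cenpa (0.38, SE 0.32), Rrm2 (0.46, SE 0.33) and Mcm2 (-0.31, SE 0.23) had the smallest p, with adjusted p of 1 in the edgeR test. Groups did not overlap for Mcm6 alone, whose levels are given above, with all knockout libraries higher, as in 1.51% of all 13694 genes tested; 0% were called. Without both libraries numbered 2 the mitotic sum differed by -116 CPM, the other way, and 20 of 25 fold changes lay below 0 (median -0.07). Monocytes gave 361 ± 369 and 481 ± 207 CPM (exact permutation p = 0.8). Ube2c (-1.09, SE 0.69), Mcm3 (0.87, SE 0.57), Rrm2 (0.67, SE 0.65) and Tpx2 (0.39, SE 0.79) had the smallest p there. Of the mice in knockout 3, monocytes of mouse 1 stood at 1875 CPM and of mouse 2 at 135 CPM. The 3 control mice had 122 to 200.4 CPM. Among the cells tied to a mouse, mouse 1 alone thus stood high, and cells tied to no mouse are left out.

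**Figure D5:**
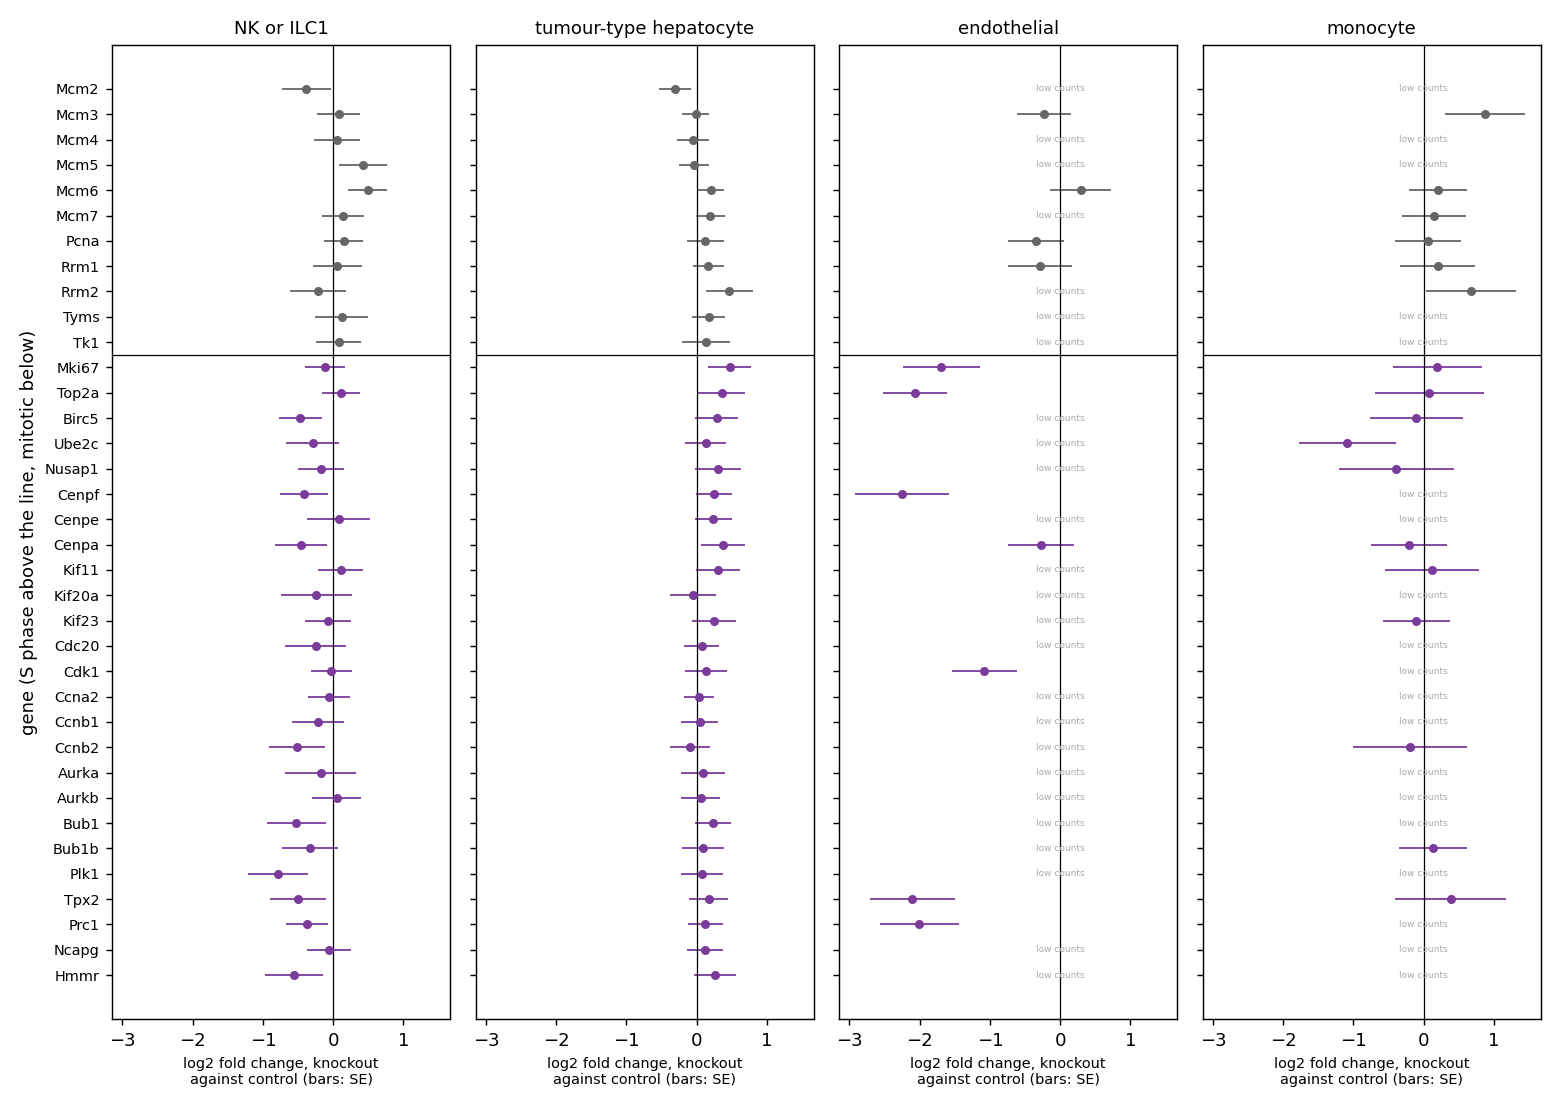
Log2 fold change of each gene, knockout against control libraries, in 4 classes (points, with bars of 1 SE); genes marked low counts did not pass the filter. The endothelial mitotic genes lie left of 0, from -2.26 to -0.28, and the other 3 panels straddle 0.

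Endothelial cells, which line the vessels and are not aimed at by Ncr1-driven Cre, were the one class of the 5 in which the mitotic sum and share did not overlap between groups. Their mitotic sums were 1138, 705.7 and 663 CPM in the control and 457.5, 96.6 and 230.1 CPM in the knockout libraries. All control libraries were above all knockout libraries. The means were 836 ± 263 and 261 ± 182 CPM (SD, n = 3 each), with exact permutation p = 0.1, the smallest possible, and adjusted p = 0.857. Thinned cells with at least 3 mitotic genes were 12 of 163, 3 of 53 and 16 of 382 in controls (7.36%, 5.66% and 4.19%) and 2 of 48, 0 of 8 and 1 of 302 in knockouts (4.17%, 0% and 0.33%). Knockout 1 lay just under control 3, so the gap between the groups was narrow. S phase sums overlapped, at 335 ± 58.9 and 243 ± 62.2 CPM (exact permutation p = 0.2). In both phases the knockout sum was the lower one in 3 of 3 same-numbered pairs (exact paired permutation p = 0.25, the smallest that 3 pairs can give).

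Gene by gene, 7 of 25 mitotic and 4 of 11 S phase genes had enough endothelial counts to be tested, and a gene could pass that filter through the controls alone. Groups did not overlap for 5 of the 7 and 1 of the 4, each lower in knockouts, as in 2.84% of all 6024 genes tested, of which 0% were called. Control Top2a was read at 133, 143 and 85.0 CPM (66, 32 and 184 UMIs) and knockout Top2a at 37.7, 0 and 27.6 CPM (8, 0 and 26 UMIs). The 0 is a library of 10 endothelial cells in which 3 UMIs would be 57.9 CPM. Its log2 fold change in edgeR was -2.07 (SE 0.45, unadjusted p = 0.000325, adjusted p = 0.345). Without both libraries numbered 2 edgeR gave -1.76 (adjusted p = 1). With the replicate number as a block it gave -1.86 (SE 0.35, adjusted p = 0.0458), and without the filter -2.10 (adjusted p = 0.00687), where Cenpf passed too (-2.26, adjusted p = 0.0392). Mki67 stood at 139, 103 and 72.5 CPM (control) and 70.7, 0 and 18.0 CPM (knockout), and Prc1 at 90.5, 58.1 and 44.4 CPM and at 33.0, 0 and 10.6 CPM. Neither overlapped, and the edgeR values were -1.69 (SE 0.54) and -2.004 (SE 0.56), with adjusted p of 0.9999. Tpx2 (-2.11), Cdk1 (-1.08) and Cenpa (-0.28) were the others tested, and 6 of the 7 had an unadjusted p under 0.05, as had 93 of all 6024 genes (1.54%). Pcna gave -0.34 (SE 0.40) and Mcm6 0.29 (SE 0.44).

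Other values of these libraries are set beside this difference. Libraries 3 were split by hashtag, antibody tags that mark the mouse, which leaves out the cells tied to no mouse. Endothelial mitotic sums were then 333, 344 and 945 CPM in the 3 control mice and 423 and 209 CPM in the 2 knockout mice. The mice of the 2 groups overlap. With mice as units the difference was -396 CPM (exact permutation p = 0.0952). With whole libraries as units the difference was -557 CPM without both numbered 2, and -672 to -423 CPM without any single library. Median depth was 2074, 3693.5 and 4033 UMIs in controls and 3603.5, 3844.5 and 1941.5 UMIs in knockouts. Hepatocyte markers, 17 of 17 detected in both groups, summed to 344 to 905 CPM in control and 38.6 to 1138 CPM in knockout endothelial cells. Tumour-type markers, 11 of 11 and 10 of 11 with Lin28b at 0, gave 75.9 to 314 and 57.9 to 227 CPM. Neutrophil markers were at 4.5 to 35.6 and 0 to 103.9 CPM (8 of 9 in each group, Retnlg at 0), and macrophage markers at 24.1 to 60.1 CPM (11 of 11) and 61.3 to 116 CPM (7 of 11, with Adgre1, Marco, Timd4 and Vsig4 at 0). Their part in the result was not tested.

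Classes with fewer libraries were compared after the cell numbers were seen, and no member passed in T cells, B cells, cDC1 or cDC2 (edgeR, 0% of all genes called in each). At an unadjusted p under 0.05 there were 0 members in T cells, 11 in B cells, 8 in cDC1 and 5 in cDC2. Of all genes, 216 of 11673 (1.85%), 158 of 9829 (1.61%), 212 of 7973 (2.66%) and 174 of 3153 (5.52%) were under it in these classes. Type 2 conventional dendritic cells (cDC2), with 2 libraries against 2, gave Birc5 at 219 and 119.7 CPM in controls and 15.5 and 16.8 CPM in knockouts (edgeR log2 difference -3.35, SE 0.54, adjusted p = 0.159). Mki67 there was at 170.3 and 163 CPM against 41.2 and 39.2 CPM (-2.05, SE 0.37, edgeR adjusted p = 0.187). Each knockout Birc5 value is 3 UMIs, and 6 of 25 mitotic genes passed the filter. In cDC1, 22 of 24 mitotic genes tested lay below 0 and 9 of 11 S phase genes above 0, with medians of -0.43 and 0.34. The cDC1 groups overlapped in mitotic sum. Its mean was 1721 CPM (SD 604) for control libraries, against 1264 CPM (SD 188) for knockout libraries (exact permutation p = 0.6667). Among single genes of cDC1, the smallest p were as follows. Top2a (-0.77, SE 0.27) and Mki67 (-0.67, SE 0.23) against Rrm2 (0.77, SE 0.28) and Mcm6 (0.54, SE 0.22) had the smallest p, all with adjusted p = 0.9996 in the edgeR test. B cells had 19 of 20 mitotic genes below 0 (median -1.34), led by Ube2c (-2.54, SE 0.57, adjusted p = 0.374, edgeR), at mitotic sums of 578, 111.5 and 256 CPM (control) and 165.2 and 147 CPM (knockouts 1 and 3). Control 2 lay below both knockouts, so the B cell groups overlap. T cells gave a mitotic median of -0.04 and S phase median of 0.12, with sums of 1966, 469 and 1673 CPM against 1756 and 1431 CPM. Other classes leaned the other way in mitotic genes. Medians were 0.54 in macrophages (13 of 14 tested above 0) and 1.45 in basophils or mast cells (5 of 5). In hepatocytes left unsplit the median was 0.18 (18 of 25 above 0). Medians over all genes were -0.002 in cDC1, 0.01 in B cells, 0.01 in cDC2 and 0.03 in T cells. They were 0.02 in macrophages, 0.004 in basophils or mast cells and -0.01 in unsplit hepatocytes. The counts of genes above or below 0 were not tested.

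Other genes of the cycle were read from 4 further lists. Of 18 origin licensing and replication genes tested, 18 were higher in NK or ILC1 cells and 18 in tumour-type hepatocytes than in the mean of the other classes, where 32.8% and 43.5% of all genes were. Dut, which clears dUTP, had median levels of 249.6 and 295 CPM there and 33.0 CPM in endothelial cells. Of 27 further genes of G2 and mitosis, 24 and 23 were higher. Hmgb2, a chromatin protein with 160196 UMIs in all, was at 1711 CPM in NK or ILC1 cells, 632 CPM in tumour-type hepatocytes and 667 CPM in neutrophils. Of 13 G1 cyclins, kinases and E2F factors, 8 were higher in each class, and 4 were lower in tumour-type hepatocytes. In tumour-type hepatocytes 43.5% of all genes were higher and 34.8% lower, so these counts lie near the background there. Cyclin D3 (Ccnd3) stood at 348 CPM in NK or ILC1 cells and 49.3 CPM in tumour-type hepatocytes, and its kinase Cdk4 at 87.1 and 192.9 CPM, the opposite order. Of 16 inhibitors and quiescence genes, 8 were higher in NK or ILC1 cells, where 32.8% of all genes were. In tumour-type hepatocytes 4 were higher and 10 lower, beside 43.5% and 34.8% of all genes. A difference between these classes was not tested. The antiproliferative genes Btg1 and Btg2 stood at 53.6 and 31.2 CPM in tumour-type hepatocytes, 430.4 and 271 CPM in NK or ILC1 cells, and 1851 and 2520.3 CPM in neutrophils.

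None of the genes in these lists passed between knockout and control in any class (edgeR). The smallest p were those of Cdkn1a, which encodes the inhibitor p21, in NK or ILC1 cells (17.3 ± 9.21 and 55.4 ± 16.9 CPM, 1.56, SE 0.33, edgeR adjusted p = 0.636), and Ccng1 (1.02, SE 0.26, adjusted p = 0.9997). Hmgb2 in endothelial cells stood at 300.1 ± 42.9 CPM in controls and 118 ± 54.6 CPM in knockouts (-1.20, SE 0.37, adjusted p = 0.9999, edgeR), without overlap. Cdca3, a trigger of mitotic entry, was at -0.77 (SE 0.28) in NK or ILC1 cells, Ccnd2 and Ccnd1 at -1.02 and -0.97 in monocytes, and the repair genes Ung and Lig1 at 0.52 and 0.37 in NK or ILC1 cells.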

How the data were processed

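The 6 mRNA libraries of mouse liver were analysed. The authors deposited raw UMI counts per gene and barcode: replicates 1 and 2 hold called barcodes and replicates 3 all barcodes. Per the file headers, Cell Ranger 7.0.1 made the counts of replicates 1 and 2 and Cell Ranger 9.0.1 those of replicates 3. The submitters' processing notes give 9.0.1 for all, and GRCm39.

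Cells were barcodes that held 500 UMIs and 300 genes or more, of which mitochondrial UMIs made up no more than 20%. In replicates 3, barcodes below 5000 UMIs also had to differ from the pool of those with at most 100 UMIs (10000 simulations, false discovery rate 0.001), which removed 270. Simulated-doublet scores and hashtags (a lead of 2-fold) removed 1124 cells, at 0.8% per 1000 cells for the scores. Cells joined a class with at least 3 UMIs from at least 2 of its markers and a level 2 times the next. Hepatocytes needed 4 markers and 40 UMIs in 10000, and were split by 3 UMIs and a 2-fold lead. Classes needed 10 cells in a library.

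UMIs were summed per library and class. Genes were tested with edgeR 4.0.16 (TMM, filterByExpr, quasi-likelihood test) in R 4.3.3 with Benjamini-Hochberg adjustment over all genes, threshold 0.05, with DESeq2 1.42.0 as an alternative. Single values were tested with exact two-sided permutation tests (scipy 1.17.1), adjusted over 10 class pairs per measure and phase, or over 5 classes and 2 phases. Shares used cells thinned to 1000 UMIs. Intervals are exact at 95% and cover counting error only. Where animals behind replicates are not named, p-values measure the spread between these libraries, which may be technical. The edgeR fit was tested on simulated data made from these libraries. By class it recovered 3.2% to 39.3% of 2-fold changes and 72.1% to 97.6% of 4-fold changes. In NK or ILC1 cells it recovered 4.1% and 73.4%, so most 2-fold changes would be missed there.

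Same-numbered libraries of the groups deviated together in all 15 class and replicate checks (correlation 0.14 to 0.43), so the numbers were taken to pair them. The main edgeR fits between groups leave this pairing out, and the block is an alternative that brings it in. The 36 members and all lists were chosen with earlier results of these data known. Named with values were the 3 members of each phase with the most UMIs and Mki67, the 2 of each phase with the smallest p in each class, those past a threshold, and the highest and lowest folds in each class contrast. From the other lists, the 2 genes with the smallest p and the 2 with the most UMIs were named. Cdk1, Kif23 within cells and the endothelial genes beyond this rule were chosen after their values were seen. Promoters are RefSeq's, build GRCm38.p6, which is not the build of the counts, so no coordinate of the counts is used with them.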

Additional observations from a re-analysis of the deposited data

Results flagged for a closer look

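The libraries numbered 3 hold barcodes with at most 100 UMIs, which no comparison of cell types uses, and the cell cycle genes were read there too. S phase genes summed to 515.0 CPM in control 3 and 619.0 CPM in knockout 3. Mitotic genes summed to 1049.1 CPM in control 3 and 1163.2 CPM in knockout 3. These sums rest on 2965262 and 4507271 UMIs in such barcodes, so counting error is small beside them.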

How the results depend on the processing

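Of 761 values under alternatives, over 106 results, 688 kept their direction and side of the threshold, 7 no longer passed it, 17 newly passed, 15 moved and 34 turned their sign; where no cause is named below, the cause was not tested. Counts of members called higher or lower in the 5-class contrasts stayed within 1.5 times under other size factors, without the filter and without the libraries numbered 2; with 8 classes 5 mitotic genes in place of 16 were lower in neutrophils. Without both libraries numbered 2 (knockout minus control), the mitotic share was -2.93 points in NK or ILC1 cells, -0.719 in monocytes and -3.29 in tumour-type hepatocytes, and the S phase share 0.436 in endothelial cells. Sums were then -58.9 CPM (S phase, NK or ILC1), -72.4 (mitotic, monocytes), -11.6 (S phase) and -116 (mitotic, tumour-type hepatocytes). Rrm2 and Cenpa in tumour-type hepatocytes were at -0.0471 and -0.0378. With these 4 libraries the exact test's adjusted p was 0.179 for 7 S phase class pairs, NK or ILC1 cells or tumour-type hepatocytes against the 3 low classes and endothelial cells against monocytes, since fewer pairs allow no smaller p, and 0.875 for monocytes against neutrophils in mitotic sums. The NK or ILC1 S phase share was -0.0592 points with doublets kept and -2.27 at 2 genes a cell, and its mitotic sum 377 CPM with libraries 3 split into mice. The exact test's adjusted p was 0.0446 for 7 pairs in mitotic share thinned to 2000 UMIs and for 7 pairs in mitotic sums under stricter markers, 0.5 for monocytes against neutrophils in S phase share at 2 genes a cell. Under stricter markers S phase sums gave 0.594 (NK or ILC1 against tumour-type), 0.0391 (endothelial against neutrophil) and 0.243 (monocyte against neutrophil).

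Knockout calls over all genes without the filter were 27, 20, 29 and 3 in NK or ILC1 cells, endothelial cells, monocytes and neutrophils, of which 2 endothelial ones (Top2a, Cenpf) are members. With the replicate block they were 7, 11 and 21 in the first 3, of which 1 (Top2a in endothelial cells) is a member; the pairing changed no other call of a member. Leaving out each library in turn gave -1.48 to 1.64 points (S phase share, NK or ILC1), -2.86 to 4.64 (mitotic), -0.812 to 0.230 (S phase, endothelial) and -4.13 to 7.17 (mitotic, tumour-type). Sums ran from -595 to 346.5 CPM (mitotic, NK or ILC1), -14.5 to 330.3 (mitotic, monocytes), -196.6 to 56.2 (S phase, neutrophils) and -55.2 to 433 (mitotic, neutrophils). Calls over all genes were 0 to 1 in NK or ILC1 cells, monocytes and tumour-type hepatocytes and 0 to 3 in endothelial cells. In monocytes Rrm2 ran from -0.212 to 1.85, Ube2c from -1.77 to 0.214 and Tpx2 from -0.692 to 1.78. In endothelial cells, neutrophils and monocytes 11, 0 and 17 of 36 genes passed the filter on low counts.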
